A study of Vulpes vulpes with 8 samples.

Results

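The 8 red foxes (Vulpes vulpes) of this study fall on 2 sides by how strongly their gingiva expressed genes of the cornified envelope, the cross-linked protein shell that replaces the membrane of a dying keratinocyte. Foxes 19, 97, 381 and 402 formed the high side, and foxes 55, 86, 107 and 757 the low side, so all 8 of the 8 arrays are used, 4 on each side. The sides were chosen by the measured expression of those genes on these same arrays. Differences between the sides are therefore given as descriptions, with standard errors and no p-value.

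Gum pieces came from foxes with or without hereditary hyperplastic gingivitis (HHG), an inherited overgrowth of the gum. On the high side, fox 19 was an affected male, 381 an affected female, 97 an unaffected male and 402 an unaffected female. On the low side, 55 and 107 were affected males, 757 an affected female and 86 an unaffected male, so 86 is the only unaffected fox there. Fisher's exact test gave a two-sided p of 1 for side against disease status and for side against sex, but with 8 foxes it could not have gone below 0.1429, so it says nothing of balance. Each fox gave 1 array, and the labels name no genotype, age or treatment. Some pieces came from foxes euthanised at pelting and others from anaesthetised live foxes sampled once whelping was over, and the labels do not say which fox was which. RNA was read on a dog array, the Affymetrix Canine 2, so fox transcripts were measured through dog probes. Gene symbols come from the array's annotation of dog genes, and a probe set that also matches a close relative of its gene cannot separate the copies.

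Gum epithelium renews itself from a basal layer. As keratinocytes move up they change keratins, join by desmosomes, secrete barrier lipids and proteases, and in keratinised gum end as cornified cells. Gum lining the tooth side is thin and does not cornify, and beneath it lie plasma cells, lymphocytes and macrophages in a collagen-rich connective tissue. A gum piece holds all of these, and in such bulk tissue fewer cells of a type and less RNA per cell cannot be told apart.

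The cornified envelope genes that define the sides were read as a list of 47 symbols, of which 18 are in the annotation and 16 were tested. The list score is the mean of log2(signal + 16) over the genes tested, each centred on its mean over the 8 foxes. It was 0.75, 0.46, 0.60 and 0.65 in high-side foxes 19, 97, 381 and 402, and -0.067, -1.93, 0.25 and -0.72 in low-side foxes 55, 86, 107 and 757. All later values follow this order of foxes. Fox 97 at 0.46 lay just inside the boundary and fox 107 at 0.25 just outside, so the gap between the sides was small beside the spread within the low side, where fox 86 stood far below the others.

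Of the 16 genes, 6 had sides that did not overlap: CSTA, SBSN, ASPRV1, TGM5, DSC1 and DSG1. CSTA, the protease inhibitor cystatin A, read 1919.7, 1452, 1281 and 1775 on the high side and 305, 0.736, 918 and 200.4 on the low side, in MAS5 signal units. SBSN, suprabasin, read 6697, 5078, 4709 and 5033 against 1796, 33.1, 3010.1 and 761. The desmosomal cadherin DSG1 read 8067, 5946, 5081 and 5800.3 against 2516, 814, 3856 and 2303. In CSTA, SBSN and DSG1 fox 86 was the lowest and fox 107 the highest of the low side, whereas in DSC1 fox 757 was the lowest, at 3.36. The other 10, among them IVL, TGM1, TGM3, SPINK5, PPL and EVPL, overlapped. IVL, involucrin, read 5966, 6937, 4477 and 6485 against 7098, 1173, 7879 and 4783, so low-side foxes 55 and 107 were above every high-side fox. These values chose the sides and are no result of the comparison.

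Measures of the arrays themselves also moved with the sides. Background, read as the 95th percentile of 42 bacterial control probe sets, was 7.42 to 10.8 on the high side and 12.3 to 16.6 on the low side. The share of probe sets above background was 70.8% to 74.7% against 63.4% to 67.9%. The GAPDH control's 5′ probe set over its 3′ one, in log2, which falls as labelled RNA gets shorter, was -1.01, -0.86, -0.56 and -0.88 against -1.82, -1.90, -1.52 and -1.14. None of these 3 measures overlapped between the sides, and their part in the differences below was not tested. The 5′ actin control split the foxes otherwise: it was low in 3 high-side foxes (19, 381 and 402) and in low-side fox 55, and high in fox 97 and in low-side foxes 86, 107 and 757. Differences within the actin sets are given for some genes and lists, and are unequal for many others. They have no term for disease status, which is uneven between the sides in both sets. Median signal ran from 28.7 to 33.8, and Pearson correlations across probe sets were 0.929 to 0.972 within sides and 0.902 to 0.960 between them. Markers of epithelium, connective tissue and blood vessels read above background in all 8 foxes. DSP and the oral keratin KRT13 read at least 1226 and 6515. COL1A1, of connective tissue, read at least 2272, and PECAM1, of blood vessels, at least 201. KRT5 and KRT14, the usual basal keratins, were matched to no probe set here, nor was the muscle gene CKM.

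**Figure D1:**
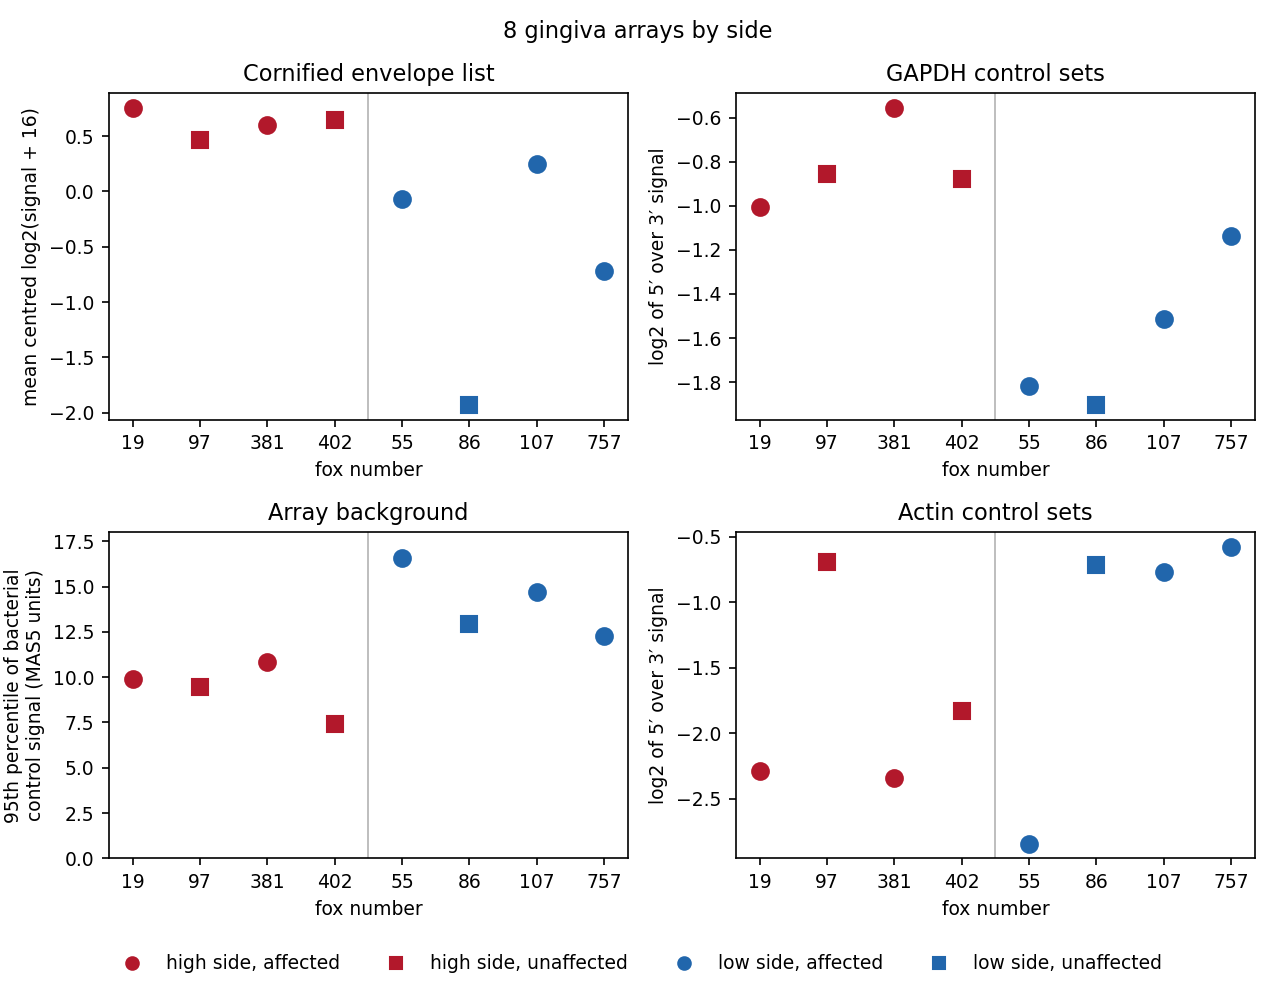
Each of 4 panels plots 1 measure per array against fox number: the cornified envelope list score, log2 of 5′ over 3′ GAPDH signal, array background in MAS5 signal units, and log2 of 5′ over 3′ actin signal. Red marks the high side, blue the low side, circles affected and squares unaffected foxes; the GAPDH ratio and background do not overlap between sides, while actin is low in 3 high-side foxes and in fox 55.

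The side difference was estimated for 25754 probe sets with disease status as a covariate. Of these, 269 (1.04%) were at least 2-fold higher on the high side with no overlap between the sides, and 350 (1.36%) were at least 2-fold lower. With 1 probe set for each of 10824 genes, 651 genes (6.01%) were higher and 591 (5.46%) lower without overlap, 116 and 154 of them by at least 2-fold. Both directions were thus about equally populated, and the median gene differed by -0.0064 on the log2 scale. The median standard error of a side difference was 0.208. Since the sides were drawn from these data, the shares are the background for the counts below and nothing is inferred from them. All differences below are log2 differences, high minus low side, ± SE, on log2(signal + 16), which shrinks those of dim genes. Fox 86 is the only unaffected fox of the low side, so with the covariate every value without fox 86 compares affected foxes only. Unaffected foxes 97 and 402 then carry no weight in it. Of the 154 lower genes 31 were at background in at least 1 high-side fox, and of the 116 higher genes 22 were at background in at least 1 low-side fox.

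Of the 116 genes higher by 2-fold, 6 belong to the cornified envelope list, 19 to other lists and 91 to none. Among keratins of keratinised epithelium, 5 of 8 genes tested were higher with no overlap, 0 lower, and the median difference was 2.25. KRT10, the keratin of cells committed to cornify, read 5124, 243, 2455 and 604 on the high side and 86.4, 44.4, 144 and 74.7 on the low side. The sides differed by 4.17 ± 0.49, and within the high side affected foxes 19 and 381 were above unaffected foxes 97 and 402. Without the covariate, the KRT10 difference was 4.28 in the low actin set and 1.44 in the high actin set. In the latter, unaffected fox 97 is the only high-side fox, so actin set and disease status cannot be told apart there.

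KRT16, a keratin of oral and stressed epithelium, read 12422, 12439, 12887 and 11727 against 2833, 234, 8272 and 2825, a difference of 3.05 ± 0.70, or 1.64 without fox 86. The high-side foxes were nearly equal and the low-side foxes were not. KRT76, a keratin of palate and gum, behaved alike at 14746, 16326, 14820.0 and 15134 against 5621, 1029, 13192 and 7717, a difference of 1.93 ± 0.55, or 0.83 without fox 86. Its other probe set differed by 0.97. KRT17, whose sequence is close enough to KRT16 that probes may read both, differed by 2.30 ± 0.58 and by 2.08 in its other probe set, with low-side fox 107 at 330.1 close to high-side fox 381 at 356. KRT2, of the uppermost cornifying layers, rested on 1 fox: it read 802 in fox 19 and 30.2 to 93.0 in the other high-side foxes against 14.9 to 23.7, and its difference of 2.21 ± 0.62 was 1.18 without fox 19 and 0.41 in the high actin set.

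Of the keratins of lining epithelium, KRT13 and KRT24 overlapped between the sides. KRT13, the main keratin of lining epithelium, read 7090.3, 12982, 11242 and 11968 against 8633, 6515, 9609.8 and 9189, with a difference of 0.31 ± 0.24, or 0.60 without fox 19 and -0.033 without fox 86. KRT24, another keratin of that list, was higher by 1.73 ± 0.58, by 2.27 in its other probe set, and by 0.52 without fox 86. In the lining epithelium list 0 of 6 genes were higher and 1 was lower without overlap, EMP1 at -0.66 ± 0.33, or -0.40 without fox 757. The list's median was -0.30, and ran from -0.52 without fox 107 to -0.17 without fox 86. Besides KRT13 and KRT24 the list takes in EMP1 and MAL, which are not keratins, and KRT7 and KRT18, keratins of simple epithelium. MAL, KRT7 and KRT18 differed by -0.49, -0.11 and -0.88, so the negative median does not describe KRT13 and KRT24. Over all 23 keratins tested, 13 were higher and 10 lower, and 5 and 0 did so without overlap, KRT10, KRT16, KRT17, KRT2 and KRT76. KRT1, the usual partner of KRT10, read 1042 in fox 19 but 4.39 in fox 97, and 4.41 to 5.72 on the low side, and thus overlapped.

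The basal layer list showed little. Of 12 genes tested 7 were higher and 5 lower, with a median of 0.088 (-0.075 without fox 19, 0.26 without fox 86), and 1, DST, did not overlap. DST, which anchors keratins to hemidesmosomes, read 1365, 1003, 1175 and 1017 against 501, 923, 887 and 811, a difference of 0.57 ± 0.23. COL17A1, of the same anchoring structure, read 165, 82.6, 90.2 and 68.4 against 77.4, 61.9, 49.3 and 67.6, and overlapped. The list's score ran from -0.083 to 0.19 on the high side and from -0.23 to 0.14 on the low side. The basal scores thus overlapped between the sides.

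**Figure D2:**
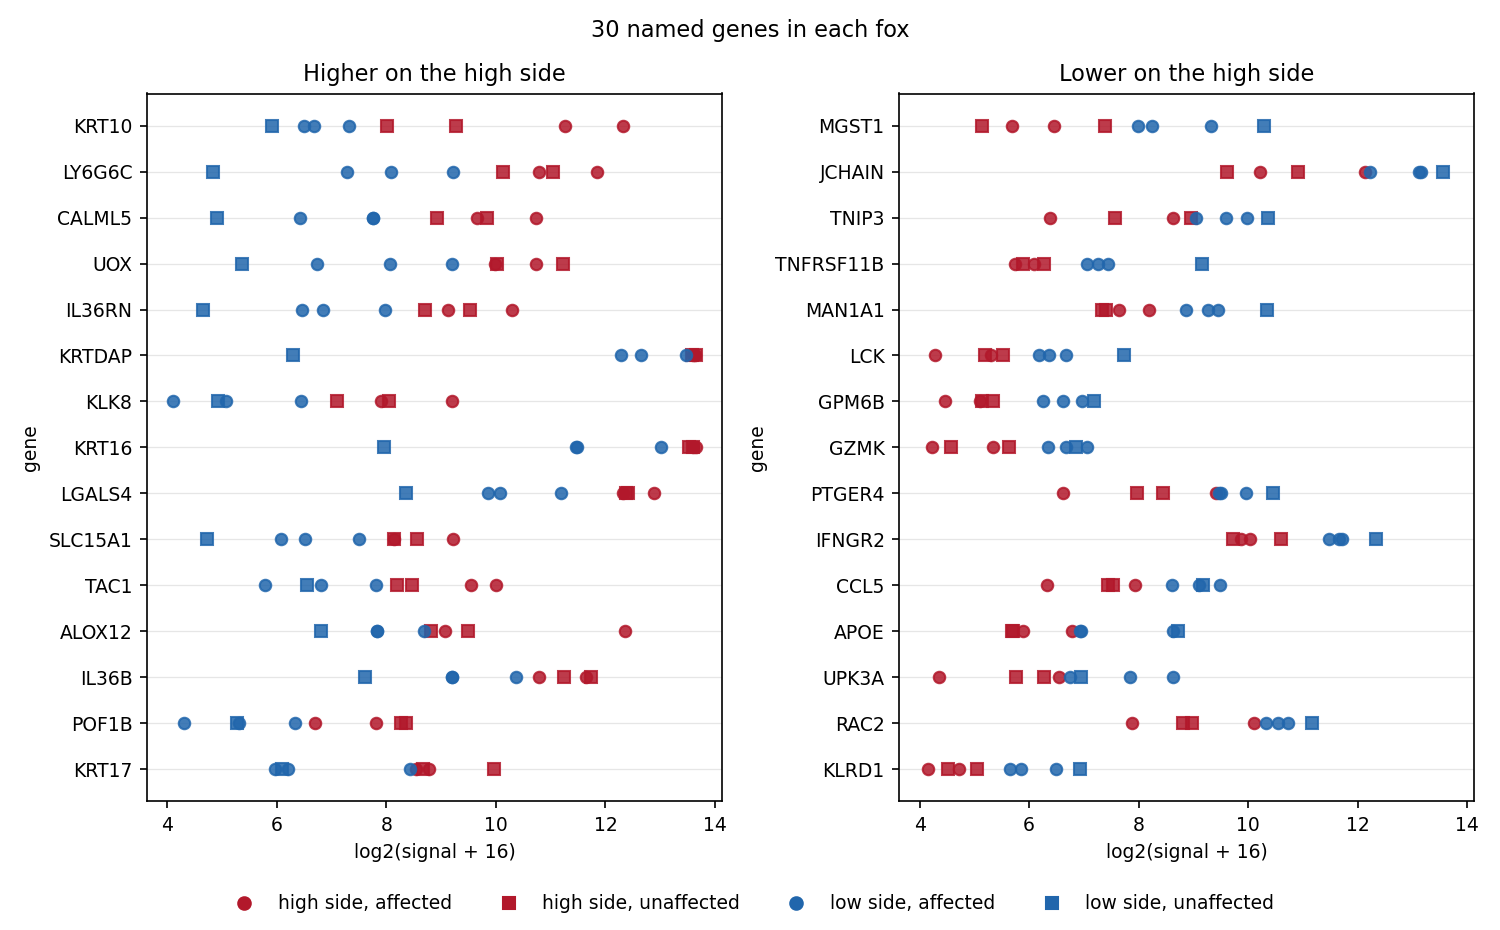
Each row is 1 gene, and each point 1 fox at its log2(signal + 16), for the 15 genes outside the cornified envelope list with the largest side difference in each direction among those with no overlap. Red marks the high side, blue the low side, circles affected and squares unaffected foxes; for KRTDAP and KRT16 the high-side foxes cluster at the top of the scale while fox 86 lies far to the left.

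Some small proteins secreted or held at the cell surface also differed widely. LY6G6C, a lipid-anchored protein of the Ly6 family, read 3679.7, 1101, 1756 and 2092 against 254, 12.4, 579 and 139.5, a difference of 4.07 ± 0.59. CALML5, a calmodulin-like protein of differentiating keratinocytes, read 1695, 467, 790.5 and 895 against 200.2, 14.001, 200.3 and 69.4, a difference of 3.45 ± 0.45. No low-side fox reached the lowest high-side fox, number 97, in either gene. The high and low actin sets gave 3.02 and 3.15 for LY6G6C, and 2.56 and 2.32 for CALML5. All 8 tested genes of the Ly6 family were higher, with a median of 1.44, and 3 did not overlap: LY6G6C, LY6D and CD59. LY6D read 439 in fox 86, and its difference of 1.81 ± 0.53 was 0.70 without that fox and 0.19 in the low actin set. CD59, an inhibitor of complement lysis, differed by 1.14 ± 0.17, and by 0.55 in its other probe set. SLURP1, a secreted member of the family, differed by 2.72 ± 0.64 but overlapped. Among affected foxes alone, and so without fox 86, LYPD3, LYPD2, LYPD6 and LY6G5B differed by 0.51, 0.46, 0.095 and 0.058. LY6G6C, SLURP1 and CD59 then differed by 3.13, 2.01 and 1.11. This family and those of the next paragraphs named as families were chosen after their values were seen.

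KRTDAP, keratinocyte differentiation-associated protein, read 12660.0, 12886, 12474 and 12216 against 6435, 62.2, 11405 and 4993. Its difference of 3.14 ± 1.05 was 0.81 without fox 86, the one at 62.2. The whole list of S100 and small secreted proteins was split, with 17 of 33 genes higher and 16 lower, 4 and 4 of them without overlap. Its median of 0.0096 ran from -0.16 to 0.067 with each fox left out in turn. The 4 lower ones were IL1A, IL1RN and the calcium-binding proteins S100A2 and S100A10.

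That split ran through the interleukin-1 family, whose members either drive or block epithelial inflammation. IL36RN, the antagonist of the IL-36 receptor, read 1245, 402, 544 and 727 against 99.0, 9.06, 236 and 71.8, a difference of 3.28 ± 0.48. IL36B, an agonist at the same receptor, read 3199, 2396, 1748 and 3413 against 575, 180.4, 1311 and 574, a difference of 2.43 ± 0.47. Both the agonist and the antagonist were thus higher on the high side in every fox. IL1RL2, the receptor that binds them, read 175, 168, 122 and 227 against 51.0, 53.0, 96.2 and 81.1, a difference of 1.12 ± 0.25. IL1F10, interleukin-38, differed by 2.09 ± 0.43. The older members went the other way. IL1A, an alarm cytokine of epithelium, read 172, 66.3, 115 and 84.3 against 176, 203, 193 and 375, a difference of -0.89 ± 0.27. IL1RN, the antagonist of the IL-1 receptor, read 625, 525, 773 and 686 against 967, 1138, 929 and 1186, a difference of -0.67 ± 0.18. Of the 13 family members tested, 5 were higher and 8 lower, 4 and 2 of them without overlap. IL1B and IL33 overlapped, at -0.40 ± 0.20, or -0.12 without fox 86, and -0.79 ± 0.39.

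Epithelial proteases and their inhibitors held genes of both directions, 4 of 21 higher and 3 lower without overlap, with a median of 0.22, or -0.16 without fox 86. KLK8, a kallikrein protease of the upper epidermis, read 574, 121, 223 and 250.3 against 17.5, 14.4, 70.8 and 1.25, a difference of 3.10 ± 0.51. KLK11 read 292, 69.9, 99.4 and 106 against 41.6, 20.7, 65.6 and 14.2, a difference of 1.72 ± 0.39. Kallikreins shed the outermost cells by cutting their desmosomes, and of the 7 tested outside the cornified envelope list 6 were higher, with a median of 1.33. The exception was KLK1 at -0.78 ± 0.31, and only KLK8 and KLK11 did not overlap. Among affected foxes alone, and so without fox 86, KLK10, KLK4 and KLK12 differed by 0.83, 0.24 and 0.19, and KLK13 by -0.26. KLK8, KLK11 and KLK1 then differed by 3.35, 1.85 and -0.76. CST6, cystatin M/E, which blocks cathepsins of the cornifying layer, read 7561, 7099, 6273 and 7651 against 5348, 1327, 5334 and 3554, a difference of 1.24 ± 0.35, or 0.56 without fox 86 and 0.41 in the low actin set. TMPRSS11D, an airway and oral serine protease, differed by 1.14 ± 0.24. The lower genes were CAPN14, a calpain of oesophageal epithelium, SERPINB2, an inhibitor of plasminogen activators, and the lysosomal protease CTSC. SERPINB2 read 498, 556, 814 and 802 against 1154, 1603, 891 and 2449.6, a difference of -1.14 ± 0.33, and CAPN14 and CTSC differed by -1.22 ± 0.36 and -1.02 ± 0.26.

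Lipid genes of the permeability barrier were higher in part. Of 21 tested, 4 were higher and 2 lower without overlap, and the median of 0.27 was -0.0020 without fox 86. ELOVL4, which makes the very long fatty acids of barrier ceramides, read 496, 195, 179 and 233 against 54.3, 27.9, 116 and 22.3, a difference of 2.24 ± 0.41. SDR9C7 and the lipoxygenase ALOX12B, which act in turn on those ceramides, differed by 1.69 ± 0.35 and 1.32 ± 0.26. The lower ones were the sphingomyelinase SMPD1 at -0.59 ± 0.19 and the ceramidase ACER1 at -0.34 ± 0.15. PLA2G4F, an epithelial phospholipase A2, read 59.5, 86.1, 86.7 and 109.6 against 6.11, 3.002, 12.8 and 7.13, a difference of 2.11 ± 0.21, and no low-side fox was above background. Its neighbour PLA2G4D differed by 1.71 ± 0.33, whereas PLA2G4A, the widely expressed member, differed by -0.38 ± 0.17 without overlap. ALOX12, a lipoxygenase of platelets and epithelium, differed by 2.52 ± 0.61, but by 1.62 without fox 19, at 5262, while foxes 97, 381 and 402 read 436 to 705. Its other 3 probe sets differed by 0.28 to 1.24 only.

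Desmosomes rivet keratinocytes together, and tight junctions seal the gaps between them. Of 9 desmosome genes outside the cornified envelope list 7 were higher and 2 lower, 2 and 0 without overlap, with a median of 0.89, or 0.46 without fox 86 and 0.59 without fox 97. DSP, desmoplakin, read 6971, 5758, 5252 and 5889.7 against 3151, 1226, 4106 and 2897, a difference of 1.34 ± 0.28, or 0.85 without fox 86. DSG3, a cadherin of the lower layers, read 2452, 2180.2, 1769 and 2601 against 917, 1043, 1577 and 1333, a difference of 0.89 ± 0.22. DSG2, the cadherin of simple epithelium, overlapped at -0.11 ± 0.37. Of 20 tight and gap junction genes 8 were higher and 12 lower, with a median of -0.15, which ran from -0.26 without fox 55 to 0.024 without fox 19. The only one without overlap was CLDN8, lower by -1.18 ± 0.47 on the high side, or -0.72 without fox 757.

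Transcription factors switch the differentiation genes on. Of 21 transcription factors 12 were higher and 9 lower, with a median of 0.074, and of 0.036 to 0.14 with each fox left out in turn. KLF4, needed for barrier formation, was the only one without overlap, at 7088, 6799.9, 5822 and 6352 against 5163, 1429, 5017 and 3193, a difference of 1.14 ± 0.32, or 0.56 without fox 86 and 0.31 in the low actin set. Its other probe set differed by -0.029. OVOL1, which drives cells out of division, read 139.6, 237, 108 and 152 against 52.1, 38.3, 149 and 54.8 and overlapped through fox 107.

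Retinoids oppose cornification, and the list of retinoid and vitamin D genes had 4 of 20 genes higher and 1 lower without overlap. The median of 0.0080 ran from -0.11 to 0.11 with each fox left out in turn. The enzymes DHRS9, RDH16 and SDR16C5, which oxidise retinol or related substrates, differed by 0.93 ± 0.22, 0.82 ± 0.21 and 0.75 ± 0.20, and the receptor RARG by 0.61 ± 0.26, or 0.23 without fox 86. RDH10, which oxidises retinol as well, went the other way, at 942, 1078, 980.0 and 1203 against 1364, 1594, 1426 and 2848, a difference of -0.73 ± 0.25. Among 20 genes of Wnt, BMP and Hedgehog signalling, BMP7 at 1.14 ± 0.26 and the Wnt inhibitor SFRP1 at 0.64 ± 0.19 were the ones without overlap, both higher. BMP7 read 78.6 to 157 on the high side, with every low-side fox below 78.6. Of 9 EGF family genes none was separated.

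Some of the most divided genes are better known from other organs. UOX, urate oxidase, an enzyme of liver peroxisomes, read 991, 1025, 1692 and 2377 against 251, 25.0, 573 and 90.1, a difference of 3.40 ± 0.68 and of 2.05 in its other probe set. LGALS4, galectin-4 of the gut lining, read 7538, 5317, 5122 and 5411 against 914, 311, 2305 and 1064, a difference of 2.88 ± 0.41. SLC15A1, the peptide transporter of the small intestine, read 581, 267, 265 and 361 against 75.8, 10.4, 166 and 51.6, a difference of 2.57 ± 0.43. All of these were above background in each high-side fox, and LGALS4 was among the brighter genes of the array. LGALS4 stood alone among 6 galectins, since LGALS1, LGALS2, LGALS3 and LGALS8 differed by -0.052 to 0.20 and LGALS9 by -0.66 ± 0.28, or -0.27 without fox 86, all with overlap. TAC1, the precursor of the neuropeptide substance P, read 1014, 279, 729.9 and 339.9 against 95.6, 77.4, 208 and 39.1, a difference of 2.56 ± 0.42. POF1B, an actin-binding protein of epithelial junctions, differed by 2.33 ± 0.45.

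On the low side, the separated genes included those of plasma cells, lymphocytes and macrophages. All 8 tested plasma cell and B cell genes were lower on the high side, 4 of them without overlap, with a median of -1.27. JCHAIN, the chain that joins secreted IgA, read 1170.5, 768, 4485 and 1911 on the high side and 4791, 11976, 9154 and 8941 on the low side. The difference was -2.25 ± 0.52, and high-side fox 381 at 4485 came close to low-side fox 55 at 4791. The other 2 JCHAIN probe sets differed by -1.27 and -0.89. POU2AF1, a co-activator of B cells, read 17.6, 10.6, 44.4 and 9.86 against 65.7, 140.4, 107 and 87.7, a difference of -1.67 ± 0.31. CD79A, of the B cell receptor, read 0.813, 3.71, 20.2 and 15.1 against 41.1, 101, 46.7 and 48.2, a difference of -1.64 ± 0.30, with foxes 19 and 97 at background. MS4A1, the B cell antigen CD20, differed by -0.90 ± 0.22. The list median was -1.42 in the high actin set and -0.59 in the low actin set.

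Of 20 genes of T and cytotoxic lymphocytes 19 were lower and 1 higher, 10 lower and 0 higher without overlap, with a median of -1.13. LCK, the kinase of the T cell receptor, read 3.46, 20.6, 23.5 and 30.3 against 66.0, 196, 56.5 and 85.9, a difference of -1.88 ± 0.27. CD3D and CD3G, chains of that receptor, differed by -1.58 ± 0.36 and -1.59 ± 0.33. GZMK, a granzyme, read 2.86, 7.7, 24.4 and 33.6 against 65.5, 100.2, 117 and 85.6, a difference of -1.85 ± 0.32. GZMA, the other granzyme tested, was the exception at 20.5, 12.6, 66.5 and 48.3 against 43.0, 35.1, 26.9 and 29.4, a difference of 0.022 ± 0.33. KLRD1, the CD94 receptor of killer cells, was above background in 1 of 4 high-side foxes and in 4 of 4 low-side foxes, and differed by -1.76 ± 0.26. CCL5, a chemokine that T cells release, read 64.1, 158, 229.8 and 169 against 698, 561, 375 and 536, a difference of -1.84 ± 0.34. The list median was -1.11 in each actin set, and no fox left out alone moved it outside -1.41 to -0.89. Without both foxes 19 and 86 it was -0.43, a value that compares fox 381 alone with affected low-side foxes.

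All 17 genes of macrophages and monocytes were lower, 4 without overlap, with a median of -0.80, or -0.52 without fox 86, and of -1.20 in the high and -0.35 in the low actin set. The 3 chains of complement C1q were among the 4. C1QA read 274, 361, 911 and 479.8 against 1536, 1395, 1225 and 1199.5, a difference of -1.48 ± 0.33. C1QC differed by -1.73 ± 0.33 and C1QB by -1.44 ± 0.39, or -0.91 without fox 19. CD14, the co-receptor for bacterial endotoxin, was the remaining one at -0.44 ± 0.22, or -0.27 without fox 757. Of 10 neutrophil genes 8 were lower, and PADI4, which citrullinates histones, was the 1 without overlap, at -0.73 ± 0.20. RAC2, a GTPase of blood cells, read 221, 434, 1084 and 485 against 1479, 2281, 1672 and 1263, a difference of -1.80 ± 0.42. Its other probe set differed by -1.38. Fox 381, affected, had the highest plasma cell, T cell and macrophage scores of the high side, at -0.11, -0.11 and 0.13, and the macrophage score overlapped through it and fox 55 at 0.12.

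Chemokines draw immune cells into tissue, and interferons switch on antiviral genes. Of 25 chemokine and cytokine genes 23 were lower, 3 without overlap, and of 25 type I interferon response genes all were lower, 6 without overlap, with medians of -0.54 and -0.40. CXCL12, CXCL8 and CCL28, which attract lymphocytes, neutrophils and IgA-producing cells, differed by -1.29 ± 0.31, -0.90 ± 0.25 and -0.62 ± 0.21. CXCL8 read 2589, 865, 1664 and 1496 against 3496, 2742, 2777 and 3980.3, close between fox 19 and fox 86. IRF7, a master factor of the interferon response, read 49.2, 123, 61.6 and 60.1 against 132, 221, 157 and 150.04, a difference of -1.19 ± 0.21. XAF1, IFI35 and OAS1, induced by interferon, differed by -0.96 ± 0.25, -0.70 ± 0.18 and -0.67 ± 0.18. IFNGR2, a chain of the interferon-gamma receptor, read 1029, 1541, 918 and 829.6 against 3328, 5176, 3209 and 2847, a difference of -1.85 ± 0.22, with -1.15 and -1.14 in its other 2 probe sets.

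**Figure D3:**
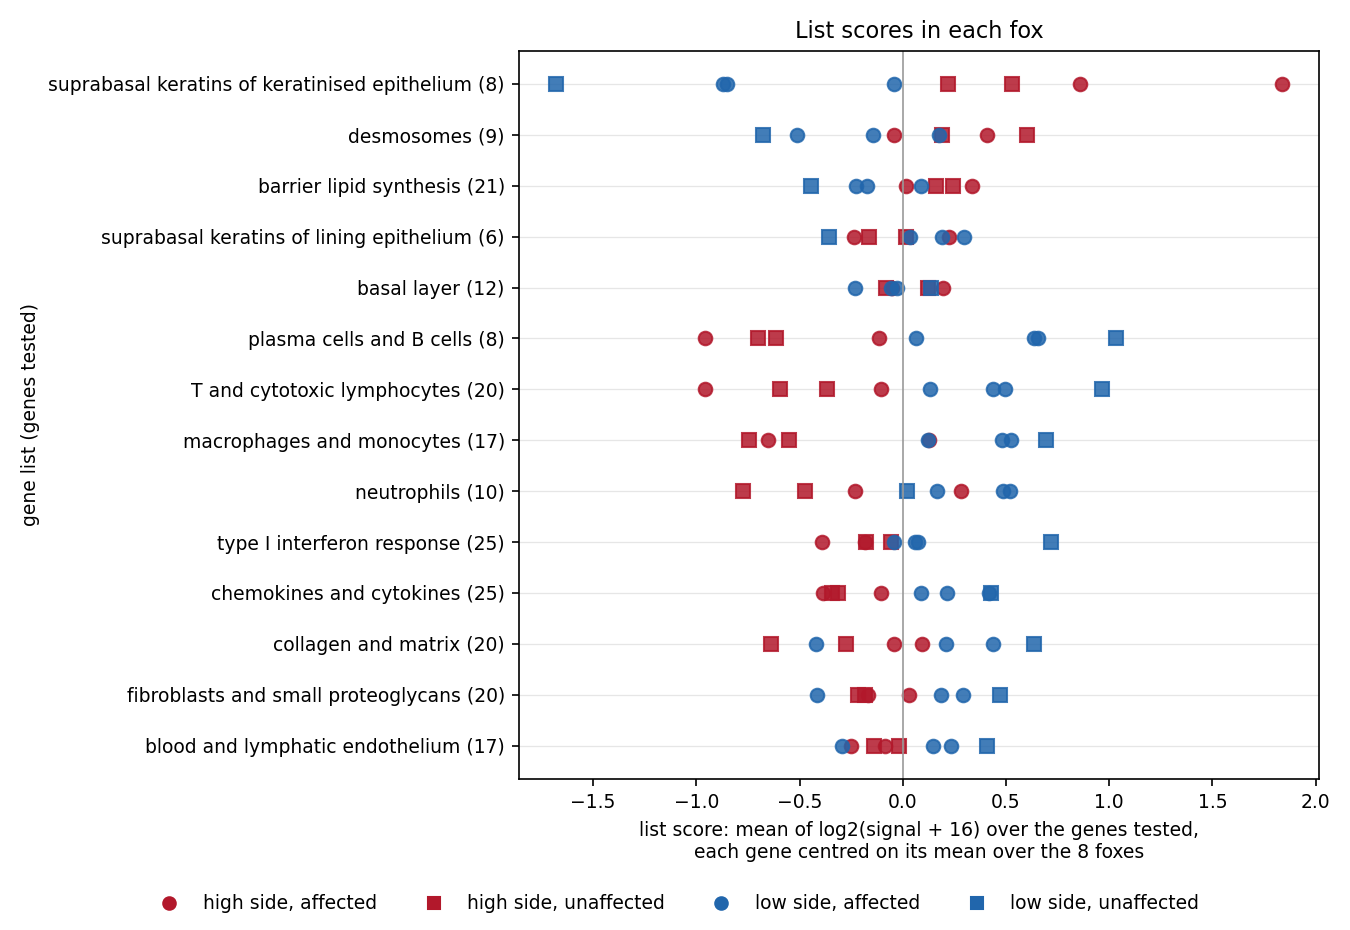
Each row is a gene list with the number of genes tested, and each point the list score of 1 fox on the log2 scale. Red marks the high side, blue the low side, circles affected and squares unaffected foxes; scores of the keratinised keratins, plasma and B cells, T and cytotoxic lymphocytes, interferon response and chemokines do not overlap between the sides, whereas those of the basal layer, collagen, fibroblasts and endothelium do.

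Several of the lowest genes belong to no single immune cell. MGST1, a membrane glutathione transferase, had the largest difference of all named lower genes, at 71.5, 19.2, 35.9 and 151 against 239, 1242, 288 and 622, or -3.02 ± 0.55, and -2.35 in its other probe set. TNFRSF11B, osteoprotegerin, the decoy receptor that restrains bone-resorbing cells, read 37.8, 61.4, 52.5 and 43.0 against 117, 554, 138 and 158, a difference of -1.96 ± 0.33. TNIP3, which restrains NF-kB signalling, differed by -2.07 ± 0.50. The prostaglandin E2 receptor PTGER4 read 82.1, 334, 665 and 235 against 696, 1391, 984 and 709, and its difference of -1.85 ± 0.52 was -1.18 without fox 19. The mannosidase MAN1A1 differed by -1.88 ± 0.33, and its other 3 probe sets by -1.89 to -1.62. GPM6B, a membrane glycoprotein, differed by -1.87 ± 0.22, and by -1.02 in its other probe set. UPK3A, a uroplakin of the bladder lining, read 380.2 in fox 55 and 4.47 in fox 19, and its difference of -1.80 ± 0.56 was -1.07 without fox 19. APOE, a lipid carrier of macrophages and other cells, differed by -1.82 ± 0.49, or -1.15 without fox 86, but by 0.39 in its other probe set, so no direction can be given for it.

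Scores of the connective tissue lists overlapped between the sides. Of 20 collagen and matrix genes 17 were lower and 3 without overlap, COL5A2, FBLN1 and THBS2, with a median of -0.48. That median was 0.10 without fox 86 and -0.28 without fox 402, and was 0.33 within the low actin set against -0.69 within the high actin set. COL1A1 read 5536, 5338, 5388 and 2272 against 4430.4, 9646, 8942 and 6084, so fox 55 fell among the high-side foxes. COL5A2 differed by -0.98 ± 0.24, and FBLN1 by -1.10 ± 0.28, or -0.72 without fox 86. None of 20 fibroblast genes was separated, with a median of -0.29, which was 0.14 in the low actin set, -0.055 without fox 86, -0.50 without fox 381 and -0.58 without fox 55. Of 17 endothelial genes 1 was separated, ICAM2 at -0.97 ± 0.25, or -0.62 without fox 86. The endothelial median of -0.34 was 0.13 in the low actin set and -0.21 without fox 86.

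Markers of tissue that a gum piece can carry along were checked in the same way. Among 8 skeletal muscle genes 1 was separated, ATP2A1, higher by 0.81 ± 0.18, while the muscle actin ACTA1 read 2.12 to 76.0 over all foxes. Of 8 smooth muscle genes 1 was separated, SMTN, smoothelin, at 182, 185, 135 and 174 against 62.9, 80.0, 75.5 and 82.8, a difference of 0.98 ± 0.17. The smooth muscle genes TAGLN and ACTA2 leaned the other way, at -1.04 ± 0.43 and -0.77 ± 0.28, with overlap and with -0.30 and -0.28 without fox 86. Of 9 salivary gland, 8 melanocyte, 6 nerve, 4 fat and 8 bone genes none was separated. ODAM, a protein of the junctional epithelium that attaches gum to tooth, read 1036, 1591, 2128 and 993 against 1235, 5309.6, 6329.9 and 2576, with overlap through fox 55. Ribosomal protein genes were higher in 15 of 16 cases, without separation, with a median of 0.22.

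**Figure D4:**
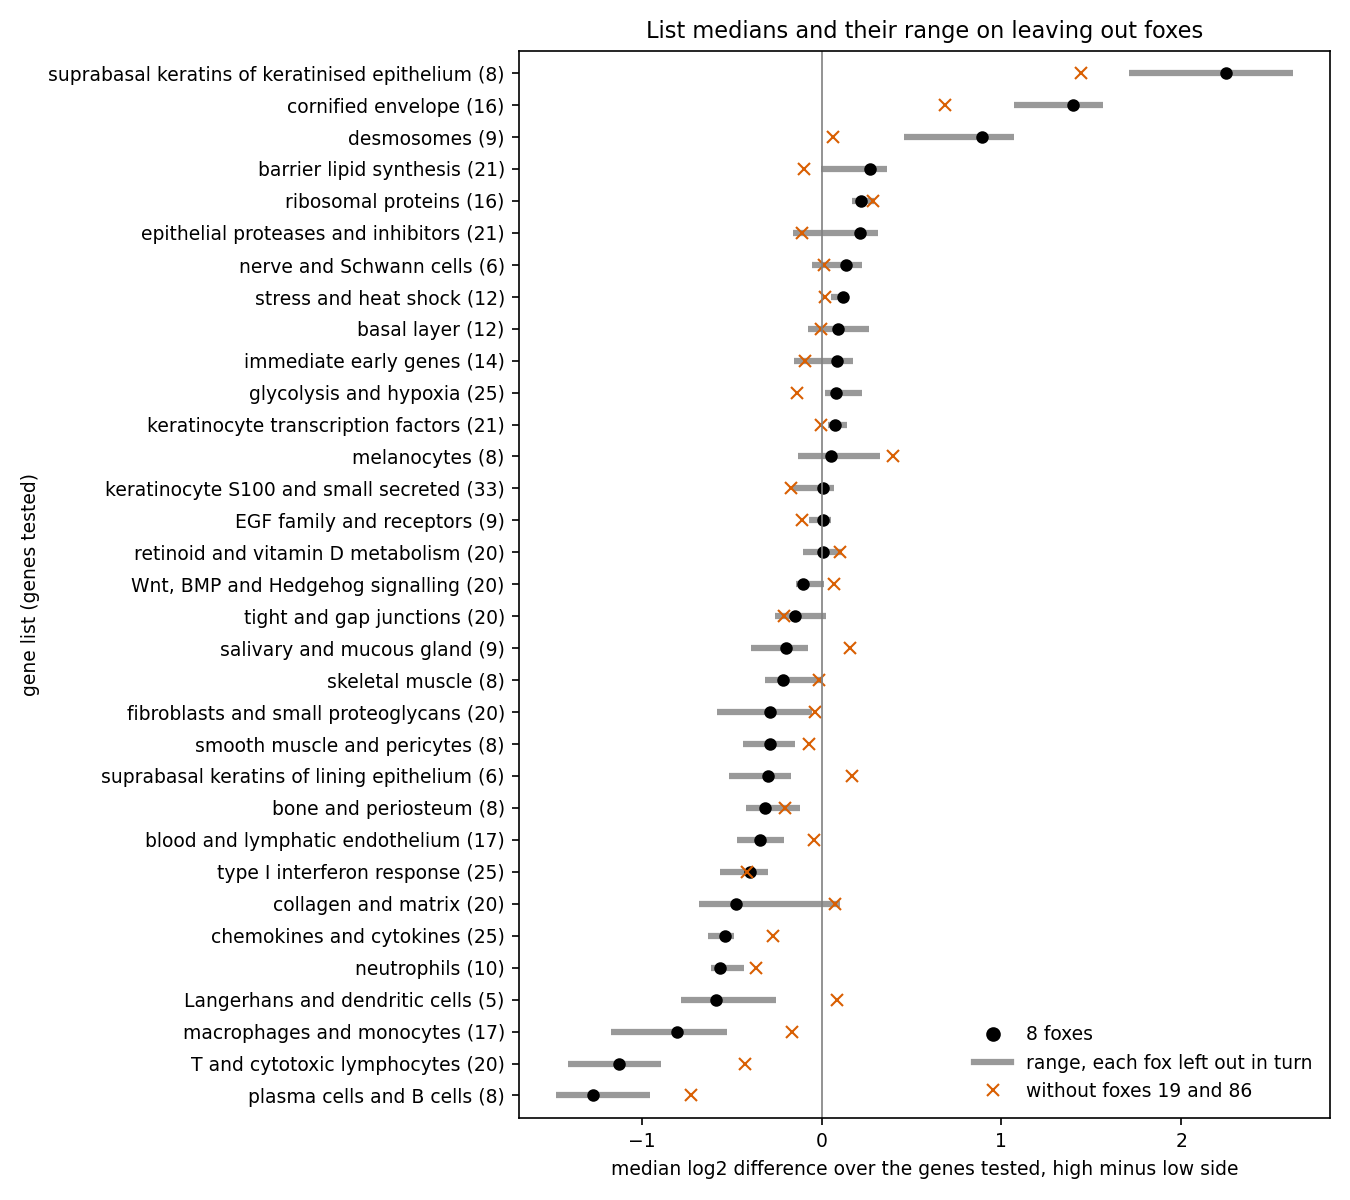
For each list with at least 5 genes tested, the point is the median log2 difference between the sides with disease status as a covariate, the bar the range of that median when each fox is left out in turn, and the cross the median without foxes 19 and 86. The bars of the keratinised keratins, T cell and plasma cell lists stay on their side of 0, and that of collagen and matrix crosses it. With the covariate the cross compares fox 381 alone with affected low-side foxes.

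Foxes 19 and 86 lay at opposite ends of many of these genes. Fox 86 had the lowest cornified envelope score and the highest plasma cell, T cell and macrophage scores, at 1.03, 0.97 and 0.70. Fox 19 had the highest cornified envelope score and the lowest plasma cell and T cell scores, both at -0.96. Without fox 86, and so among affected foxes alone, the 269 higher and 350 lower probe sets held 196 and 253 that were still 2-fold. The change cannot be credited to fox 86 alone, since unaffected foxes 97 and 402 then drop out of the side difference as well. Without both foxes 19 and 86 the unaffected foxes left are all on the high side. With disease status as a term, the side difference is then that of fox 381 alone against foxes 55, 107 and 757. In that contrast the keratinised keratin median was 1.44, that of T and cytotoxic lymphocytes -0.43 and that of plasma and B cells -0.72. That of macrophages and monocytes was -0.16 and that of desmosomes 0.061. These values rest on fox 381, so they do not show what foxes 19 and 86 contribute. With the GAPDH ratio as a further term, 219 of the 269 and 315 of the 350 were still 2-fold, and with the actin ratio 241 and 310. In all, 380 higher and 505 lower probe sets were 2-fold without overlap with the GAPDH term. The GAPDH ratio did not overlap between the sides, so with 8 arrays that fit cannot tell it apart from side.

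**Figure D5:**
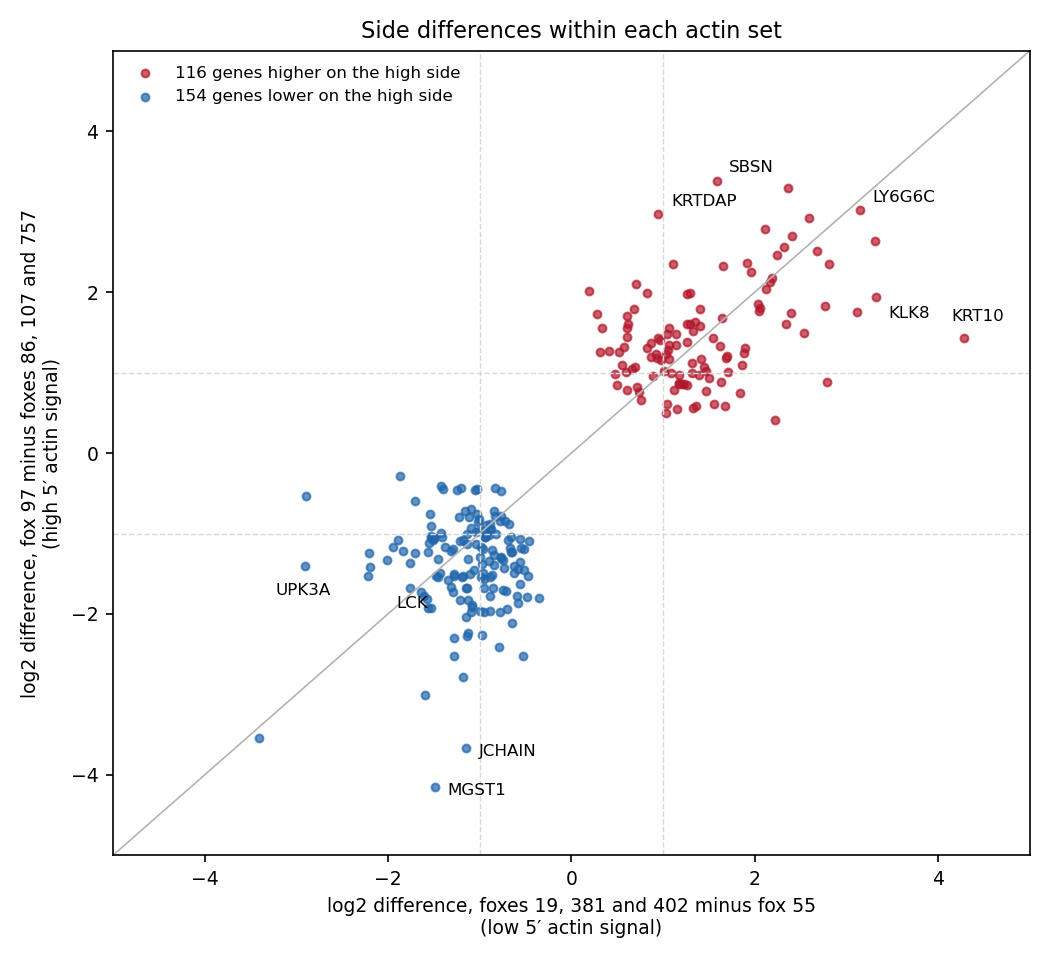
Each point is 1 of the 116 genes higher (red) or 154 genes lower (blue) by at least 2-fold without overlap; the horizontal axis gives the log2 difference between sides among foxes of low 5′ actin and the vertical axis that among foxes of high 5′ actin, with no covariate. The dashed lines mark 2-fold and the grey line equal differences; KRT10 lies far to the right and JCHAIN and MGST1 far below the line, since their differences are unequal in the actin sets.

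The direction in each actin set is fixed by the absence of overlap, so only the size is informative there. Of the 116 higher genes 60 were at least 2-fold in both sets, and of the 154 lower genes 63 were. The median higher gene differed by 1.34 in the high and 1.28 in the low actin set, and the median lower gene by -1.31 and -1.06. MGST1 differed by -4.15 and -1.49, JCHAIN by -3.67 and -1.14, and KRTDAP by 2.97 and 0.95. Each set has 1 fox on one of its sides, fox 97 or fox 55.

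The 2-fold genes were also placed in the gene order of the fox (RefSeq, assembly VulVul3). Of 104 higher genes that could be placed, 16 had another higher gene with at most 3 protein-coding genes between, in 8 pairs. Of 139 lower genes 13 did, in 6 groups. These counts describe the genes only, since the share among all placed genes was not computed. In 3 of the higher pairs a member belongs to the cornified envelope list that set the sides: KRTDAP with SBSN, DSC1 with DSG1, and TGM5 with TGM7. The others were KLK8 with KLK11, PLA2G4D with PLA2G4F, IL1F10 with IL36RN, P3H2 with TPRG1, and DLX5 with TAC1. The lower groups were the 3 C1q genes, CD3D with CD3G, CLEC12A with CLEC2B, FBLN1 with UPK3A, GDPD3 with CORO1A, and IRAG2 with ETNK1. Some of these neighbours are also relatives, such as the kallikreins and phospholipases, and dog probes could in part read both.

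Disease status itself was tested with side as a term, in limma across all 25754 probe sets. None passed (0 called, 0%, adjusted p under 0.05), with a smallest adjusted p of 0.3214. At an unadjusted p under 0.05 there were 1191 probe sets, or 4.62%, below the 5% that chance gives, and 693 without side in the model. CELA1, a serine elastase, read 79.5, 3.19, 55.1 and 15.2 on the high side and 271, 24.6, 146 and 246 on the low side. Affected foxes were higher on both sides, by 2.07 ± 0.28, with an adjusted p of 0.4634 in limma. CXCL10, an interferon-induced chemokine, was lower in affected foxes by -1.30 ± 0.22 (adjusted p = 0.9058, limma), and fox 86 had the highest signal, 637. KRT10 was higher in affected foxes by 2.20 ± 0.51 (adjusted p = 0.9233, limma), from 5124 and 2455 in affected against 243 and 604 in unaffected foxes of the high side. DMKN, dermokine, a secreted protein of upper keratinocytes, was higher by 1.05 ± 0.21 (adjusted p = 0.9233, limma). Whether the side difference itself depends on disease status was not tested, since the low side holds 1 unaffected fox.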

How the data were processed

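Each probe set has a linear intensity for every array in the table the authors deposited, which is MAS5 signal per the submitters' processing notes, without a stated version, scaling target or build. Of 43035 probe sets 111 were controls. Of the other 42924 the annotation gave 1 symbol to 29254, several to 439 and none to 13231. Values were taken as log2(signal + 16), and probe sets in the lowest 40% by mean were left out. limma 3.58.1 in R 4.3.3 fitted side and disease status together (lmFit, eBayes, Benjamini-Hochberg adjustment), and the fit was tested on simulated data. The side has no test, because the sides were set by expression in these arrays. The brightest probe set stood for each gene, and symbols starting with LOC or ENSCAFG and receptor segments were passed over.

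Of 37 lists with 800 symbols, 628 were annotated and 508 tested. Genes were named as the 15 largest differences without overlap in each direction outside the cornified envelope list, up to 4 per list and direction, and the 5 smallest p-values per direction for disease. Whole gene families, and genes named from them, were added after values were seen. The members and lists were chosen with earlier results of these data known. Alternatives covered the offset, quantile normalization, the filter, covariates, thresholds and each fox left out in turn; fits without foxes 19 and 86 and with the GAPDH ratio were added after seeing the data. Each array is 1 fox, and their number limits the precision. No promoter or protein sequences were used here.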

Additional observations from a re-analysis of the deposited data

Results flagged for a closer look

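Over 136 sets of 4 values (list scores, array measures and the 30 most divided genes, on each side), 10 held a fox whose gap to the nearest other, as a share of the side's range, passed Dixon's limit for 4 samples; chance alone passes about 5% of such sets, so these are values to look at. On the low side fox 86 stood apart in the type I interferon score (0.852), the Langerhans and dendritic cell score (0.833) and KRTDAP (0.835). Fits without fox 86 compare affected foxes only, so its part in those differences cannot be told apart from that of the unaffected high-side foxes. Fox 55 stood apart on the low side in the retinoid score (0.93) and in 5′ over 3′ actin in log2 (0.916), and it is the only low-side fox with low 5′ actin. KRT17 had fox 402 apart on the high side (0.837) and fox 107 on the low side (0.903). On the high side fox 19 stood apart in LGALS4 (0.858), fox 381 in the junctional epithelium score (0.964) and fox 402 in the smooth muscle score (0.972).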

How the results depend on the processing

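The 269 higher and 350 lower probe sets became 150 and 162 with an offset of 64, 773 and 790 at a fold of 1.5, and 116 and 154 with 1 probe set per gene. Leaving out each fox in turn gave 225 to 432 higher and 290 to 737 lower. Both highest counts came without fox 381, and without fox 55 there were 629 lower, where fewer foxes make overlap rarer. Without foxes 19 and 86 there were 186 lower. Of the lists, that of lining epithelium went to 0.17 without those foxes, junctional epithelium to 0.12, Langerhans and dendritic cells to 0.084, barrier lipids to -0.098 and collagen to 0.073. With each fox left out in turn, barrier lipids ran from -0.0020 to 0.36, skeletal muscle from -0.31 to 0.0054 and collagen from -0.68 to 0.10. The haemoglobin list had 1 gene tested, ALAS2, which is a gene of haem synthesis and not a globin. It went from 0.70 to -0.80 with the GAPDH ratio as a term. Disease status called 0 probe sets in limma under each alternative run. Causes of these changes were not tested. No paired analysis was possible because the fox numbers are the only replicate labels and no number is shared between groups. The offset limits what dim genes can show, and 63.4% to 74.7% of probe sets lay above background.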
